A study of Mus musculus with 2 samples.

Results

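The 7 genes Cd38, Entpd1, Nt5e, Ada, Adora2a, Adora2b and Nampt make, break down or sense extracellular NAD, ATP and adenosine, and are 7 of the 31053 genes in the deposited tables. They were chosen by symbol as a pathway group and selected on Cd38 CPM, which was already known to be higher in macrophages of the UBD library. The comparison of the libraries below is therefore a description of these genes and not independent evidence. The tissue was a subcutaneous tumour of MC38 cells, which come from a mouse colon carcinoma, and the labels call it a xenograft. Tumours of 1 suspension overexpressed UBD (also called FAT10), a ubiquitin-like protein induced by inflammatory cytokines, and those of the other were the control, with 1 droplet single-cell library each. Mouse strain and age, the number of tumours behind a library, the promoter driving UBD and whether the tumour cells were 1 clone are not stated by the labels. With 1 library per group there was no replicate check and no test between groups, and every interval below is a 95% interval that covers counting error only.

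Cells release ATP and NAD when stressed or damaged. CD39, the product of Entpd1, cuts ATP to AMP, and CD73, the product of Nt5e, cuts AMP to adenosine. CD38 consumes NAD and gives ADP-ribose and cyclic ADP-ribose, from which further ectoenzymes can also make AMP, so CD38 can feed CD73 without ATP. Adenosine acts on the receptors encoded by Adora2a and Adora2b, which raise cyclic AMP and dampen T, NK and myeloid cells in tumours. Adenosine deaminase (Ada) turns adenosine into inosine, and NAMPT (Nampt) is the rate-limiting enzyme of the NAD salvage pathway. Ada and NAMPT act mainly inside the cell, and the receptors are not enzymes, so the set is wider than ectoenzymes.

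Promoter windows are shown for the 3 genes whose level differed most between the libraries in macrophages, Nt5e and Cd38 upward and Adora2b downward. Each runs 250 bases before to 50 after a RefSeq start site (build GRCm38.p6, plus strand, 5′ to 3′), and capitals mark CG dinucleotides, where vertebrate DNA is methylated. The Cd38 window (chr5:43868559-43868858) is followed by those of Nt5e (chr9:88327359-88327658) and Adora2b (chr11:62248734-62249033).
Cd38: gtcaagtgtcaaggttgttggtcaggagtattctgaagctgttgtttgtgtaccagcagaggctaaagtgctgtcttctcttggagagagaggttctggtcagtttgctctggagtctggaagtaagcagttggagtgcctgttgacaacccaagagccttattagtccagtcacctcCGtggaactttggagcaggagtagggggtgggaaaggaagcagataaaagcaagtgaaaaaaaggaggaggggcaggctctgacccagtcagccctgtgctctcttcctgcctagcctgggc
Nt5e: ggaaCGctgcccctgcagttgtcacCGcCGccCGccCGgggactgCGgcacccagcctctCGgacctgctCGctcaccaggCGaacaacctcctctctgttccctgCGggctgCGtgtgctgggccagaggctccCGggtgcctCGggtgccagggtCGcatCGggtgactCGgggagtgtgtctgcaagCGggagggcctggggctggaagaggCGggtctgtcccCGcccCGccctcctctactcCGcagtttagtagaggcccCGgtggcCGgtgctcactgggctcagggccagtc
Adora2b: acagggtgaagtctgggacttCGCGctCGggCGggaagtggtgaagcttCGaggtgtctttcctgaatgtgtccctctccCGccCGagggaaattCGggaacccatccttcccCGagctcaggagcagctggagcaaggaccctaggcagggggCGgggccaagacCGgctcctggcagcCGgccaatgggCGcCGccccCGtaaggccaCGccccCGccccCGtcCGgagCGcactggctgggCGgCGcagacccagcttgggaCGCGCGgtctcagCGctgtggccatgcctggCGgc
The Cd38 window held 1 CG and was 51.7% G or C. Nt5e held 23 CG at 71.0% and Adora2b 27 CG at 70.0%. Over all 32851 mouse windows of that length the median was 7 CG and 52.7% G or C, and 14.1% of windows held 1 CG or none. Ada and Nampt, with 20 and 36 CG, and the first Entpd1 window, with 23, were likewise rich in CG, while the second Entpd1 window held 10 CG at 48.7% G or C. The table used here has no window for Adora2a.

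On GRCm38 the genes lie on 7 different chromosomes. Cd38 (ENSMUSG00000029084) spans chr5:43868553-43912375, Entpd1 (ENSMUSG00000048120) chr19:40612366-40741602 and Nt5e (ENSMUSG00000032420) chr9:88327197-88372092, all on the plus strand. Ada (ENSMUSG00000017697) spans chr2:163726584-163750239 on the minus strand, and Adora2a (ENSMUSG00000020178) chr10:75316877-75334784, Adora2b (ENSMUSG00000018500) chr11:62248984-62266453 and Nampt (ENSMUSG00000020572) chr12:32819545-32853349 on the plus strand. All are protein-coding, and the RefSeq windows of Cd38, Nt5e and Nampt lie inside these gene models, after their outermost start. Cd38 overlaps a sense intronic and an antisense RNA gene, Entpd1 overlaps 2 processed pseudogenes and a sense intronic gene, and Nampt a lincRNA on its own strand. Whether reads were counted by strand is not given in the sources used here, so reads of these overlapping genes cannot be told apart from those of the 3 host genes.

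Motifs were searched on both strands of each window. GGGCGG, a core that Sp1 binds and that is present in 35.7% of all windows, was found 4 times in Nt5e, 6 times in Adora2b, 5 times in Nampt and 2 times in Ada. It was not in the Cd38 or Entpd1 windows. TGACG, a short form of the cyclic AMP response element found in 20.8% of windows, stood 135 bases before the start of Nampt and in both Entpd1 windows. ACGTG, the core of a hypoxia response element found in 19.6% of windows, stood 82 bases before the start of Nampt, and TTCNNNGAA, a STAT-type motif found in 8.30%, stood 90 bases before that of Ada. TGANTCA (AP-1, 7.81% of windows), TATAAA (13.6%), an NF-kB motif (1.20%) and an interferon-stimulated core (3.44%) matched none of the windows. No listed motif matched the Cd38 window. These matches describe letters and not binding.

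Cells were classed by marker UMIs (unique molecular identifiers, 1 per captured transcript). The UBD library gave 1791 macrophages (C1qa), 7848 tumour cells (Cdkn2a), 239 CD8 T cells, 11 regulatory T cells, 19 NK cells and 17 endothelial cells. The control library gave 2388 macrophages, 5353 tumour cells, 202 CD8 T cells, 36 regulatory T cells, 190 NK cells and 32 endothelial cells. In each of these 6 classes all 6 marker genes not used to set the class were detected in both libraries. Detection does not show that a class is free of RNA from other cells. Endothelial markers summed to 2902 CPM in UBD and 3165 CPM in control endothelial cells. Markers of osteoclast-like cells, a further class below, summed there to 1611 and 89.6 CPM. In NK cells the osteoclast-like markers summed to 868 CPM in the UBD library and 1.82 CPM in the control. The tumour class was nearly without Epcam, an epithelial adhesion molecule, at 0.0462 CPM in the UBD library and 0.0327 CPM in the control, while Hmga2 stood at 384 and 355 CPM. Cells of 6 further host types were classed from the remainder, and 1905 UBD and 3417 control cells fell in no class. Ubd itself was at 1.20 CPM in UBD tumour cells (182 UMIs) and 0.327 CPM in control tumour cells (40 UMIs). Whether the introduced UBD sequence is counted under that mouse gene is not given in the sources used here, so Ubd does not check the labels.

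Kept cells had a median of 12155 UMIs in the UBD library and 4338 in the control. Levels are given as CPM: the UMIs of a gene in all cells of a class, relative to a class total of 10 to the power of 6. Gm42418, a gene model that overlaps ribosomal RNA, was at 2823 CPM in UBD macrophages against 11380 CPM in control macrophages, at 1036 against 2983 CPM in tumour cells, and at 3821 against 8837 CPM in CD8 T cells. Its part in the differences below was not tested. The libraries shared 71 cell barcodes, 0.477% of those of the control.

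**Figure D1:**
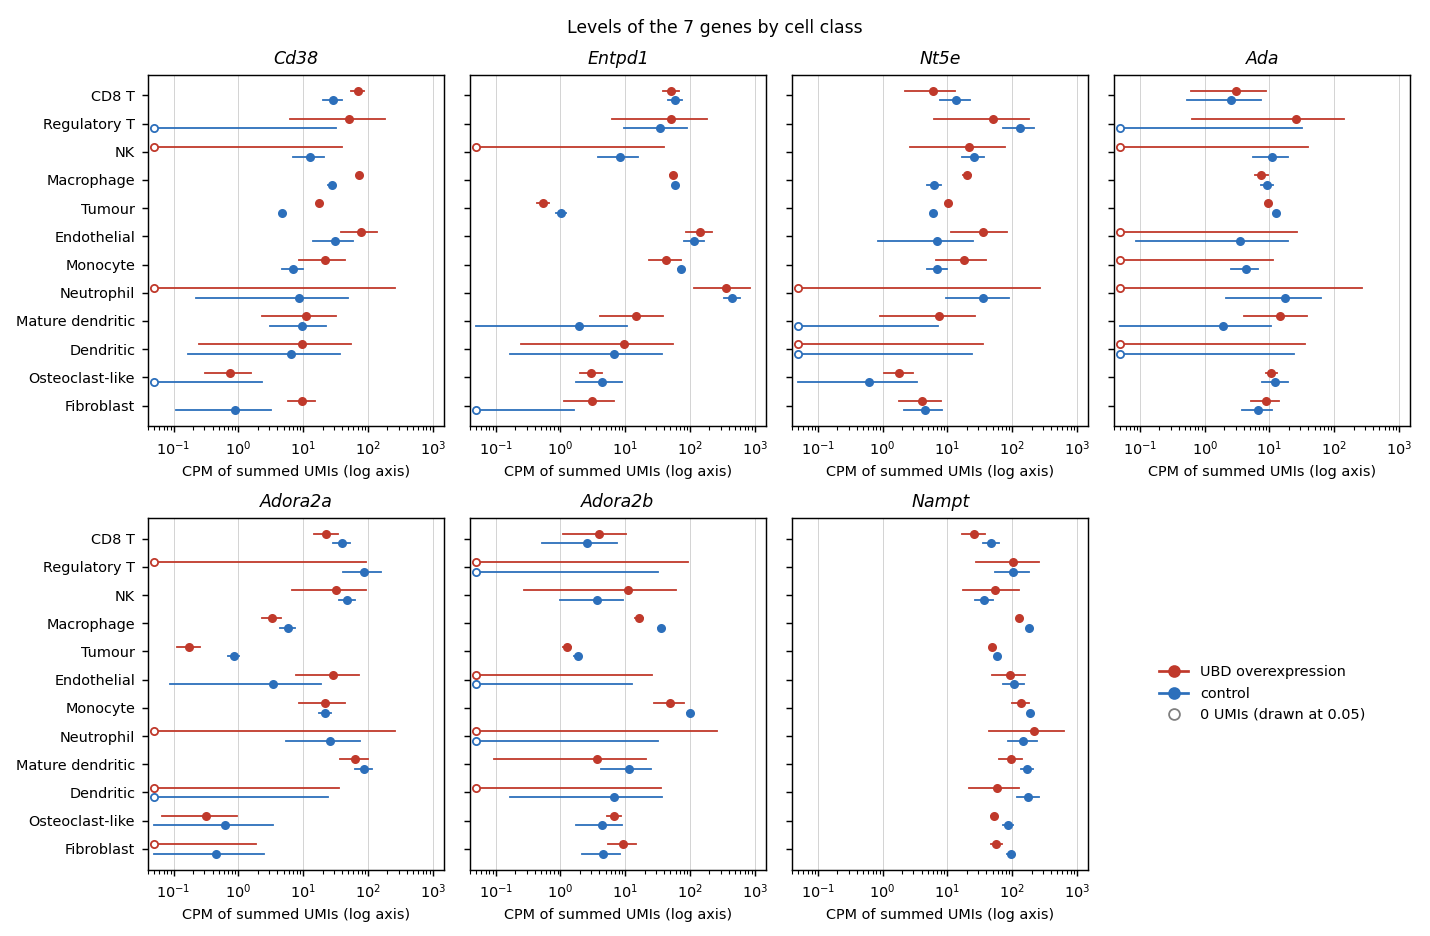
CPM of summed UMIs on a log axis for each of the 7 genes in 12 cell classes. Red is the UBD library and blue the control, bars are exact Poisson 95% intervals, and open circles mark 0 UMIs. Cd38 stood higher in the UBD library in macrophages, tumour cells and CD8 T cells, with 74.2, 17.6 and 69.8 CPM against 27.6, 4.70 and 29.0 CPM.

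Cd38 stood higher in the UBD library in macrophages, tumour cells and CD8 T cells. Macrophages held it at 74.2 CPM in the UBD library (809 UMIs) and 27.6 CPM in the control (289 UMIs), a ratio of 2.69 (2.35 to 3.09). Tumour cells held it at 17.6 CPM in the UBD library (2676 UMIs) and 4.70 CPM in the control (576 UMIs), a ratio of 3.75 (3.43 to 4.11). CD8 T cells held it at 69.8 CPM in the UBD library (70 UMIs) and 29.0 CPM in the control (34 UMIs), a ratio of 2.41 (1.58 to 3.74). In all 3 classes the counting intervals of the libraries did not overlap. Few genes of these classes had a larger ratio: 1.5% of the 11474 genes with at least 20 UMIs in macrophages, 1.69% of 15285 in tumour cells and 3.11% of 7211 in CD8 T cells. The genes were selected on Cd38, known to be higher in UBD macrophages, so its high rank there follows from the selection and is no evidence. Monocytes pointed the same way on few counts, with 21.5 CPM from 7 UMIs in the UBD library and 7.02 CPM from 31 UMIs in the control, a ratio of 3.06 (1.14 to 7.07). With stricter class markers that ratio was 5.50, and with looser ones 2.24.

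Not every class held Cd38. Osteoclast-like cells, set by Acp5 and Ctsk, gave 7 Cd38 UMIs over 717 UBD cells, or 0.751 CPM, and none over 99 control cells. Their median depth was 12383 UMIs in the UBD library and 17789 in the control, against 16918 and 17710 in tumour cells, so they give a measured low level for the gene. Fibroblasts had 9.78 CPM in the UBD library (19 UMIs) and 0.893 CPM in the control (2 UMIs). These cells also held the tumour-cell genes Hmga2, at 151 CPM in the UBD library and 218 CPM in the control, and Cdkn2a, at 231 and 293 CPM, whose part in that difference was not tested. Endothelial cells stood highest in both libraries, with 78.4 CPM in the UBD library and 31.0 CPM in the control, but on 11 and 9 UMIs, and their intervals overlapped those of macrophages and CD8 T cells. Endothelial cells also held Hmga2, at 164 CPM in the UBD library and 20.7 CPM in the control. The part of RNA from other cells in their Cd38 level was not tested. NK cells gave no Cd38 UMI in 19 UBD cells, which allows up to 32.5 CPM, and 12.7 CPM in the control. Tumour cells, the most numerous class, gave most Cd38 UMIs, 69.5% in the UBD library and 53.2% in the control. Macrophages gave 21.0% in the UBD library and 26.7% in the control.

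More cells of the UBD library carried Cd38, also with every cell thinned to 1000 UMIs. The share of macrophages with a Cd38 UMI was 7.03% of 1749 cells in the UBD library and 1.76% of 2273 in the control, a difference of 5.27 percentage points (4.0 to 6.65). In tumour cells it was 1.54% of 7808 UBD and 0.321% of 5293 control cells, a difference of 1.22 points (0.900 to 1.54). In CD8 T cells it was 8.82% (21 of 238) in the UBD library and 1.99% (4 of 201) in the control, a difference of 6.83 points (2.59 to 11.3). Thinned osteoclast-like cells gave 0 of 714 in the UBD library, which allows a share of up to 0.420%, and 0 of 99 in the control, which allows 3.03%. The shares in control tumour cells, macrophages and CD8 T cells are thus not above what the small control osteoclast-like class allows. Without thinning, 29.1% of UBD and 8.50% of control macrophages and 23.2% of UBD and 7.25% of control tumour cells had a Cd38 UMI. Cells thinned in this way gave a CD8 T ratio of 5.07 in place of 2.41, on those few cells.

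RNA of one class found in another was sized with markers, among cells left after those meeting more than 1 class rule were removed. The removed cells included 69 UBD and 289 control cells that met both the macrophage and the tumour rule. The shares below may therefore be too low, and the part of such RNA in the Cd38 levels was not tested. C1qb in UBD tumour cells was 0.264% of its macrophage level, and the same share of macrophage Cd38 is 0.196 CPM, against 17.6 CPM measured. In control tumour cells C1qb was 0.483% of its macrophage level, equal to 0.133 CPM of Cd38 against 4.70 CPM measured. Hmga2, a tumour-cell gene, was in macrophages at 3.84% of its tumour level in the UBD library and 5.95% in the control, and those shares of tumour Cd38 are 0.678 and 0.280 CPM. In CD8 T cells the same sums were 0.875 CPM from macrophages and 0.869 CPM from tumour cells in the UBD library, and 0.158 and 0.271 CPM in the control. CD8 T cells did hold more fibroblast-marker RNA in the UBD library, 777 CPM over 5 genes against 92.0 CPM in the control, and more macrophage-marker RNA, 268 against 135 CPM over 6 genes. CD8 T markers themselves summed to 9156 CPM in the UBD library and 11762 CPM in the control. Among them Gzmb, the granzyme B gene, was 2070 CPM in the UBD library and 4317 CPM in the control. Ratios of the others were 0.994 for Cd3d, 1.07 for Cd3g, 1.00 for Trac, 0.835 for Cd8b1 and 0.892 for Nkg7.

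**Figure D2:**
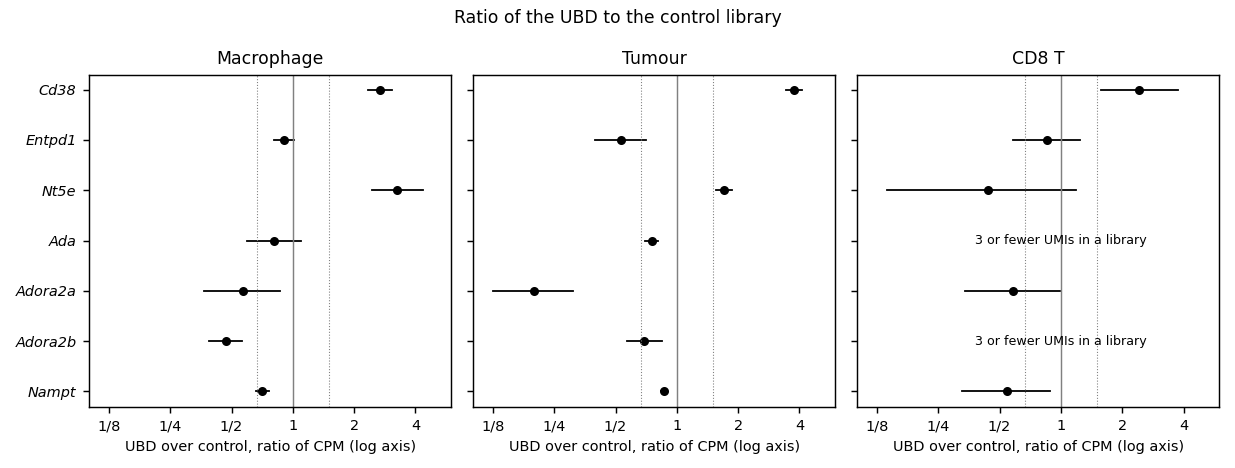
Ratio of CPM, UBD over control, for the 7 genes in macrophages, tumour cells and CD8 T cells on a log axis. Bars are exact conditional binomial 95% intervals, dotted lines mark 1.5-fold either way, and genes with 3 or fewer UMIs in a library have no ratio. Cd38 lies right of the line in all 3 panels, at 2.69, 3.75 and 2.41.

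A gene was called when its ratio was at least 1.5 either way, its interval excluded 1 and it had at least 20 UMIs. In macrophages all 7 genes could be tested by that size rule. Cd38 and Nt5e were called higher, in a class where 8.93% of genes were called higher, and Adora2a and Adora2b were called lower, where 18.4% of genes were. When ratios were centred on the median gene, 45.0% of all called macrophage genes were higher, in place of 32.7%. In tumour cells Cd38 and Nt5e were called higher, where 7.93% of genes were, and Entpd1 and Adora2a lower, where 19.4% were. In CD8 T cells 5 of the 7 genes had enough UMIs. Cd38 was called higher (6.55% of genes were) and Adora2a and Nampt lower (5.55% were). In monocytes 6 had enough, with Cd38 called higher (6.02% of genes) and Adora2b lower (7.8%). In NK cells 3 had enough and none was called, where 5.91% of genes were called higher and 4.08% lower. Since the same contrast was known when the genes were chosen, these counts are given without a reading.

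Nampt was present in every class of both libraries. It was lower in the UBD library in all classes but NK cells and neutrophils, without reaching 1.5-fold in macrophages, tumour cells or monocytes. Macrophages had 129 CPM in the UBD library and 182 CPM in the control, a ratio of 0.709 (0.661 to 0.760). Tumour cells had 49.6 and 57.7 CPM, a ratio of 0.860 (0.833 to 0.889). Monocytes had 135 CPM in the UBD library and 189 CPM in the control, a ratio of 0.713 (0.514 to 0.966). The intervals exclude 1 in these 3 classes, and in each of them Nampt, which makes NAD, and Cd38, which consumes it, differed in opposite directions. Ratios below that of Nampt were common: 25.2% of genes with at least 20 UMIs had one in macrophages, 36.9% in tumour cells and 33.1% in monocytes. A link between Nampt and Cd38 was not tested. Osteoclast-like cells had 52.1 CPM in the UBD library and 87.3 CPM in the control, and mature dendritic cells 96.2 and 173 CPM. CD8 T cells had 25.9 CPM in the UBD library (26 UMIs) and 47.7 CPM in the control (56 UMIs), a ratio of 0.543 (0.327 to 0.879) that was 0.260 with cells thinned to 1000 UMIs. In the control, monocytes, macrophages and both dendritic classes were not separated by their intervals, and in the UBD library CD8 T cells were the lowest class and the only one whose interval lay below that of the class above it.

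Entpd1, which starts the breakdown of ATP, was highest in neutrophils and endothelial cells, and macrophages and CD8 T cells held it at like levels. Mature dendritic, dendritic and osteoclast-like cells had 14.8, 9.71 and 3.0 CPM in the UBD library and 1.92, 6.60 and 4.33 CPM in the control. Neutrophils had the highest level, 360 CPM in the UBD library from 5 UMIs and 447 CPM in the control from 51 UMIs. Endothelial cells followed with 143 CPM in the UBD library and 117 CPM in the control. Macrophages had 54.0 CPM in the UBD library (589 UMIs) and 59.5 CPM in the control (623 UMIs), a ratio of 0.908 (0.810 to 1.02). CD8 T cells had 50.8 and 59.7 CPM, a ratio of 0.852 (0.582 to 1.24). Monocytes had 42.9 CPM in the UBD library (14 UMIs) and 72.5 CPM in the control (320 UMIs), a ratio of 0.592 (0.320 to 1.01) that was 1.38 with thinned cells.

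In tumour cells Entpd1 was low, at 0.541 CPM in the UBD library and 1.02 CPM in the control, a ratio of 0.530 (0.396 to 0.705) that was 0.251 with thinned cells. The thinned share of tumour cells with an Entpd1 UMI was 0.102% in the UBD library and 0.510% in the control. Osteoclast-like cells, at a lower median depth in the UBD library (12383 against 16918 UMIs) and a like one in the control (17789 against 17710 UMIs), had 0.280% (2 of 714) in the UBD library and 1.01% (1 of 99) in the control. The tumour shares lie below those, which rest on 2 and 1 cells. Osteoclast-like cells held Entpd1 themselves, with 28 UMIs in the UBD library and 7 in the control, so they set no background for it. Whether the tumour counts arise in tumour cells was not tested, and the call there is not read as a difference. Over all kept cells Entpd1 was 5.23 CPM in the UBD library and 10.1 CPM in the control, a ratio of 0.517, against 0.908 within macrophages. Monocytes, of which there were 98 in the UBD library and 1233 in the control, gave 1.42% of Entpd1 UMIs in the UBD library and 19.5% in the control.

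**Figure D3:**
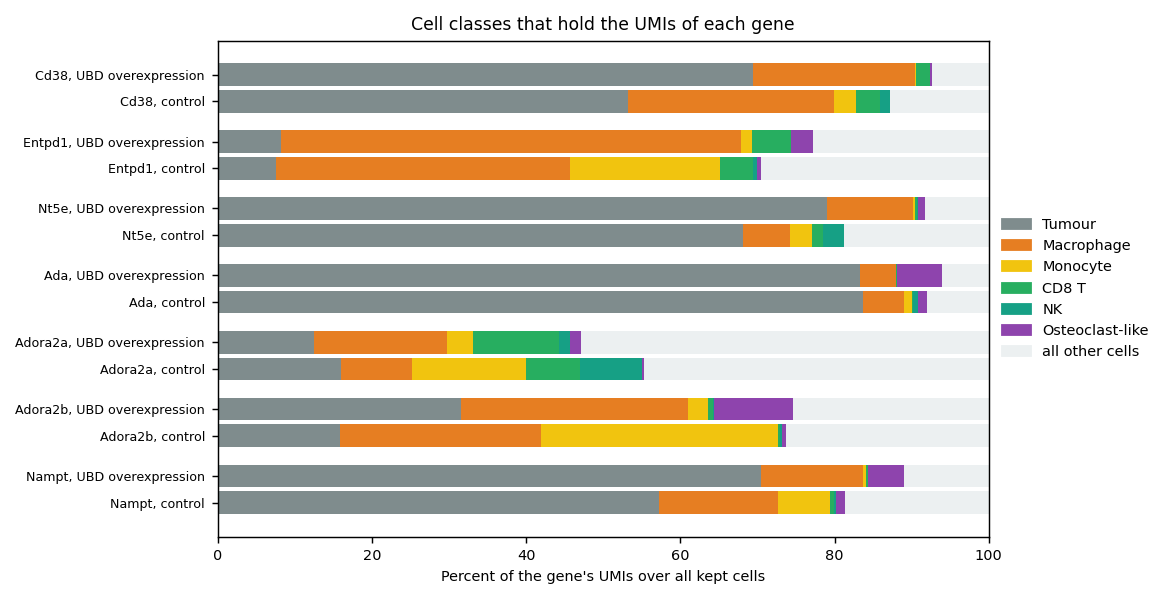
Percent of the UMIs of each gene over all kept cells that came from each cell class, with the UBD library above the control for each gene. Tumour cells gave 79.0% of Nt5e UMIs in the UBD library and 68.2% in the control, and 83.3% and 83.8% of Ada UMIs, while macrophages gave 59.6% of Entpd1 UMIs in the UBD library and 38.0% in the control.

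Nt5e, which makes adenosine from AMP, was higher in the UBD library in macrophages and tumour cells. Macrophages had 20.1 CPM in the UBD library (219 UMIs) and 6.21 CPM in the control (65 UMIs), a ratio of 3.24 (2.44 to 4.34). In macrophages 0.95% of genes had a larger ratio. Tumour cells had 10.2 CPM in the UBD library (1554 UMIs) and 6.0 CPM in the control (735 UMIs), a ratio of 1.71 (1.56 to 1.87). The libraries did not overlap within their intervals in either class. The thinned share of macrophages with an Nt5e UMI was 2.06% (1.45 to 2.84) in the UBD library and 0.616% (0.337 to 1.03) in the control. In osteoclast-like cells it was 0.280% (0.0339 to 1.01) of 714 UBD cells and 0 of 99 control cells, so the control macrophage share is not separated from that level and the UBD one is. Monocytes had 18.4 CPM in the UBD library from 6 UMIs and 7.02 CPM in the control from 31 UMIs, a ratio of 2.62 (0.893 to 6.37) that was 1.31 with looser class thresholds.

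Lymphocytes gave few Nt5e UMIs. Regulatory T cells had the highest control level, 131 CPM from 15 UMIs, with 51.1 CPM from 2 UMIs in the UBD library. CD73 on regulatory T cells is a known source of adenosine. NK cells had 21.7 CPM in the UBD library from 2 UMIs and 25.5 CPM in the control from 28 UMIs. CD8 T cells had 5.98 CPM in the UBD library (6 UMIs) and 13.6 CPM in the control (16 UMIs), a ratio of 0.438 (0.141 to 1.18) that was 0.799 with cells of more than 1 class kept and 0.282 with thinned cells. These counts cannot separate the libraries in lymphocytes.

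Ada, which removes adenosine, gave most of its UMIs in tumour cells and stayed within 1.5-fold in every class with a ratio. Tumour cells had 9.51 CPM in the UBD library and 12.6 CPM in the control, a ratio of 0.753 (0.700 to 0.809) that was 1.02 with cells thinned to 1000 UMIs. Macrophages had 7.52 and 9.27 CPM, a ratio of 0.812 (0.598 to 1.10), and osteoclast-like cells 10.7 CPM in the UBD library and 12.4 CPM in the control. None of these reached the size rule. CD8 T cells gave 3 Ada UMIs in each library, and NK cells gave none in the UBD library, which allows 32.5 CPM, and 10.9 CPM in the control.

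Adora2a, the receptor through which adenosine restrains T and NK cells, was highest in regulatory T, mature dendritic, NK and CD8 T cells of the control. Mature dendritic cells had 62.9 CPM in the UBD library (17 UMIs) and 86.5 CPM in the control (45 UMIs), a ratio of 0.727 (0.390 to 1.30). That class also held Hmga2 at 159 CPM in the UBD library and 123 CPM in the control, a gene that marks tumour cells here, and its part was not tested. Control regulatory T cells had 87.1 CPM from 10 UMIs, while the UBD ones had no UMI, which allows 76.7 CPM. NK cells had 32.5 CPM in the UBD library from 3 UMIs and 48.2 CPM in the control from 53 UMIs. CD8 T cells had 22.9 CPM in the UBD library (23 UMIs) and 39.2 CPM in the control (46 UMIs), a ratio of 0.585 (0.338 to 0.985) whose interval only just excludes 1. With cells thinned to 1000 UMIs that ratio was 0.965. The thinned share of CD8 T cells with an Adora2a UMI was 4.20% (10 of 238) in the UBD library and 5.47% (11 of 201) in the control, with overlapping intervals.

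Monocytes had Adora2a at 21.5 CPM in the UBD library and 22.0 CPM in the control, a ratio of 0.977 (0.383 to 2.09) that was 0.496 with cells thinned to 1000 UMIs and 1.28 with stricter class thresholds. Macrophages and tumour cells held far less of it. Macrophages had 3.30 CPM in the UBD library (36 UMIs) and 5.83 CPM in the control (61 UMIs), a ratio of 0.567 (0.365 to 0.869) that was 0.765 (0.448 to 1.31) without Ly6c2-high cells. Tumour cells had 0.171 CPM in the UBD library (26 UMIs) and 0.858 CPM in the control (105 UMIs), a ratio of 0.200 (0.125 to 0.310). The thinned share of tumour cells with a UMI was 0.0512% (4 of 7808) in the UBD library and 0.265% (14 of 5293) in the control. Osteoclast-like cells gave 0 of 714 in the UBD library and 0 of 99 in the control, which allow up to 0.420% and 3.03%, so these cells set no measured background for the gene. The tumour class also held less NK and CD8 T marker RNA in the UBD library. NK markers summed there to 3.63 CPM in the UBD library and 17.7 CPM in the control, over 6 genes. CD8 T markers summed to 6.01 and 15.97 CPM, also over 6 genes. Whether the tumour Adora2a counts arise in tumour cells or come from such RNA was not tested.

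Adora2b, the receptor that needs more adenosine than Adora2a to respond, was highest in monocytes and macrophages and was lower in the UBD library in both. Monocytes had 49.1 CPM in the UBD library (16 UMIs) and 98.6 CPM in the control (435 UMIs), a ratio of 0.498 (0.282 to 0.818). Macrophages had 16.5 CPM in the UBD library (180 UMIs) and 35.3 CPM in the control (369 UMIs), a ratio of 0.468 (0.390 to 0.561). In both libraries the monocyte interval lay above that of macrophages, and the macrophage interval did not overlap between libraries. After thinning, 1.54% of UBD and 4.66% of control macrophages and 3.06% of UBD and 9.64% of control monocytes had an Adora2b UMI, and the monocyte ratio of CPM was 0.277. Osteoclast-like cells had 6.76 CPM in the UBD library and 4.33 CPM in the control, and tumour cells 1.27 and 1.84 CPM, a ratio of 0.693 that was 0.362 with thinned cells. The thinned tumour shares were 0.102% in the UBD library and 0.265% in the control. The osteoclast-like ones were 0.560% (4 of 714) and 1.01% (1 of 99). Osteoclast-like cells held Adora2b themselves, with 63 UMIs in the UBD library and 7 in the control, so they set no background for it. Whether the tumour counts arise in tumour cells was not tested.

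The macrophage classes of the libraries were made up differently, so the genes were also read within splits of the class. Monocyte markers summed to 311 CPM in UBD macrophages and 1881 CPM in control macrophages. Cells with high Ly6c2, a marker of recently arrived monocytes, were 24 of 1791 in the UBD library and 739 of 2388 in the control. Among macrophages below that Ly6c2 level Cd38 was 74.3 CPM in the UBD library and 33.9 CPM in the control, a ratio of 2.19 (1.90 to 2.53). Nt5e there had a ratio of 2.96 (2.18 to 4.10), with 20.2 CPM in the UBD library and 6.80 CPM in the control. Both genes thus stood higher in the UBD library without the monocyte-like cells. In the control Adora2b was higher in the monocyte-like cells, 57.2 CPM in Ly6c2-high macrophages and 26.6 CPM in the others. Among Ly6c2-low macrophages it was 16.6 CPM in the UBD library and 26.6 CPM in the control, a ratio of 0.624 (0.507 to 0.767). With cells of 0 Ly6c2 UMIs in place of that split it was 0.691 (0.550 to 0.871), which is no longer past 1.5-fold. Adora2a among them was 2.96 CPM in the UBD library and 3.87 CPM in the control, a ratio of 0.765 (0.448 to 1.31), so its call did not hold there.

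MHC class II level split the macrophages without changing the direction of Cd38. Among cells with H2-Ab1 of at least 2000 CPM, Cd38 was 65.7 CPM in the UBD library (736 cells) and 16.4 CPM in the control (544 cells), a ratio of 4.0 (2.85 to 5.74). Among cells below it Cd38 was 79.6 CPM in the UBD library (1055 cells) and 30.9 CPM in the control (1844 cells), a ratio of 2.58 (2.21 to 3.01). In both libraries the MHC-high cells held less Cd38 than the MHC-low ones. Which of them had the larger ratio depends on the split: with H2-Ab1 taken at 1 UMI the ratio was 2.72 (2.26 to 3.29) in cells with it and 3.05 (2.47 to 3.78) in cells without. Nt5e had ratios of 6.68 (2.92 to 18.8) in MHC-high cells, on 6 control UMIs, and 3.03 (2.23 to 4.17) in MHC-low cells. Adora2b was lower in the UBD library in both, with ratios of 0.596 and 0.426. Cycling macrophages, with Mki67 or Top2a UMIs, had less Cd38 than the others in both libraries, 47.8 CPM in the UBD library and 17.2 CPM in the control, at a ratio of 2.78 (1.69 to 4.85).

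Lyve1 macrophages, a resident type found along vessels, held the most Cd38 of any group examined and showed no higher level in the UBD library. With at least 2 Lyve1 UMIs, 72 UBD cells had 201 CPM and 13 control cells had 251 CPM, a ratio of 0.802 (0.483 to 1.41). They gave 103 of the 809 macrophage Cd38 UMIs in the UBD library and 18 of 289 in the control. Without them the macrophage level was 68.0 CPM in the UBD library and 26.1 CPM in the control, a ratio of 2.61 (2.26 to 3.01). Nt5e in Lyve1 cells was 1 UMI in the UBD library and 0 in the control, so the macrophages richest in Cd38 were not those that held Nt5e in the UBD library, where Lyve1-low cells had 21.0 CPM. Within bands of depth Cd38 stayed higher in UBD macrophages, at a ratio of 4.82 (3.64 to 6.45) among cells of 2000 to 5000 UMIs and 2.21 (1.83 to 2.67) among those of 5000 to 10000 UMIs. Adora2b was lower in both bands, at 0.297 (0.195 to 0.437) in the shallow and 0.681 (0.522 to 0.888) in the deep one, where it was not past 1.5-fold. In cycling macrophages the Adora2b ratio was 0.976 (0.483 to 2.10), on 29 UMIs in the UBD library and 12 in the control.

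**Figure D4:**
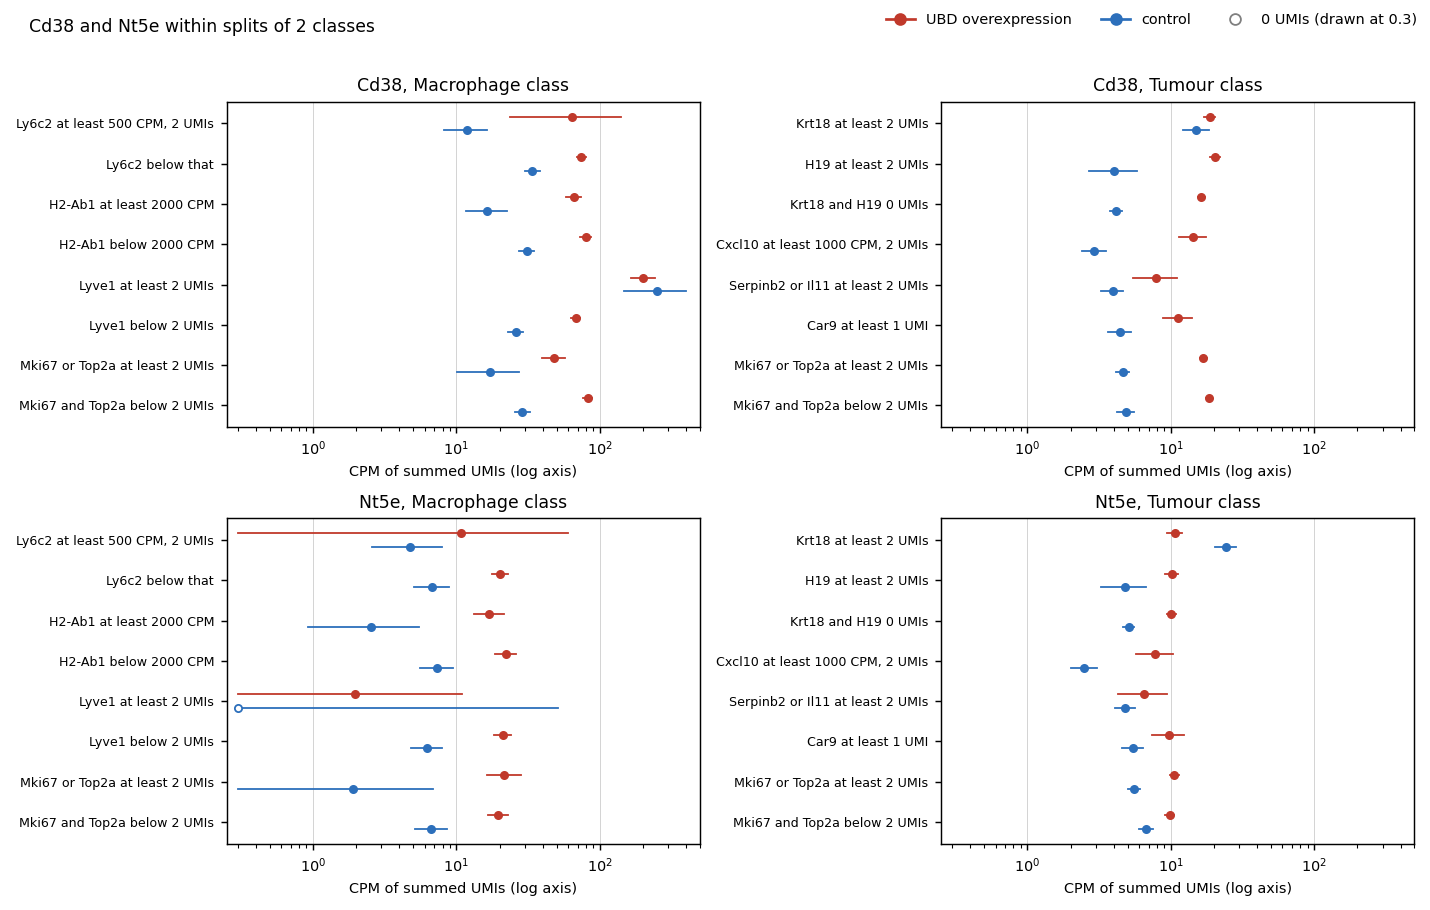
Cd38 (top) and Nt5e (bottom) within splits of the macrophage (left) and tumour (right) classes, as CPM of summed UMIs on a log axis. Red is the UBD library, blue the control, and bars are exact Poisson 95% intervals. Lyve1 macrophages stand apart for Cd38, with 201 CPM against 251 CPM in the control, and Krt18 tumour cells for Nt5e, with 10.7 CPM against 24.1 CPM.

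Tumour cells were split by genes that mark their states, chosen after the values were seen. In UBD cells with at least 2 UMIs of Krt18, an epithelial keratin, Cd38 was 18.6 CPM. In UBD H19 cells, which express an imprinted growth-regulating RNA, Cd38 was 20.3 CPM. UBD cells with neither gene (0 UMIs of both) had 16.3 CPM. In the control the same 3 groups had 15.1, 4.04 and 4.14 CPM. The ratio was 1.24 (0.984 to 1.57) in Krt18 cells, of which there were 991 in the UBD library and 170 in the control, 5.02 (3.44 to 7.61) in H19 cells and 3.93 (3.52 to 4.40) in cells with neither. Control Krt18 cells, 170 of 5353, gave 90 of the 576 control tumour Cd38 UMIs, so most lay outside that state although its level was the highest of the control splits. Cells high in Cxcl10, an interferon-induced chemokine, had 14.3 CPM in the UBD library and 2.93 CPM in the control, a ratio of 4.90 (3.64 to 6.6). Cells with Serpinb2 or Il11 had the smallest level in the UBD library, 7.87 CPM against 3.93 CPM in the control, a ratio of 2.0 (1.33 to 2.95). Cells with Car9, a hypoxia-induced carbonic anhydrase, had 11.2 CPM in the UBD library and 4.40 CPM in the control, a ratio of 2.55 (1.88 to 3.46). Cycling and non-cycling tumour cells had ratios with overlapping intervals, 3.66 (3.26 to 4.13) and 3.81 (3.31 to 4.41).

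Nt5e was higher in most of the same states of the UBD library and lower in Krt18 cells. In Krt18 tumour cells it was 10.7 CPM in the UBD library and 24.1 CPM in the control, a ratio of 0.442 (0.359 to 0.546). In H19 cells it was 10.1 CPM in the UBD library and 4.76 CPM in the control, a ratio of 2.13 (1.49 to 3.15), and in cells with neither gene 10.1 and 5.07 CPM, a ratio of 1.99 (1.78 to 2.23). These 3 UBD groups lay near one level, and the control Krt18 cells lay far above the other control cells. Cxcl10 cells had 7.76 CPM in the UBD library and 2.50 CPM in the control, a ratio of 3.1 (2.12 to 4.48). Cells with a UMI of both Cd38 and Nt5e numbered 412 of 7848 UBD and 104 of 5353 control tumour cells, where the product of the separate shares gives 259 and 35.1. The 2 genes of a cell share its depth, whose part in these counts was not tested.

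In T cells the genes were read by Pdcd1, the gene of the checkpoint receptor PD-1, which marks activated and exhausted cells. Among CD8 T cells with a Pdcd1 UMI Cd38 was 81.2 CPM in the UBD library (74 cells) and 28.6 CPM in the control (95 cells), a ratio of 2.84 (1.52 to 5.36). Among those without one it was 64.4 CPM in the UBD library (165 cells) and 29.5 CPM in the control (107 cells), a ratio of 2.18 (1.18 to 4.32). Cd38 was thus higher in the UBD library with and without Pdcd1. Entpd1 was 53.1 CPM in UBD and 71.6 CPM in control Pdcd1 cells, and 49.8 and 42.1 CPM in the cells without, with intervals of both ratios that include 1. Adora2a was 15.6 CPM in UBD and 28.6 CPM in control Pdcd1 cells, and 26.3 and 54.7 CPM in the cells without, a ratio of 0.481 (0.249 to 0.912) without Pdcd1. CD8 T cells with UMIs of both Cd38 and Entpd1 numbered 16 in each library, of 239 UBD and 202 control cells. The product of the separate shares gives 11.3 and 8.29. No CD8 T cell held Cd38, Entpd1 and Nt5e together in either library, but only 6 UBD and 14 control cells held Nt5e at all. In macrophages 184 UBD and 75 control cells held Cd38 and Entpd1, where that product gives 134 and 40.9. All 3 genes were held by 20 UBD and 4 control macrophages. Median macrophage depth was 5715 UMIs in the UBD library and 3823.5 in the control, and its part in these counts was not tested.

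The wider pathway was read from 4 gene lists in macrophages and tumour cells, with all genes of a class at a median log2 ratio of -0.10 and -0.05. The counts below stand beside 8.93% of all genes called higher and 18.4% lower in macrophages, and 7.93% higher and 19.4% lower in tumour cells. Of 18 other makers and users of NAD, 13 had enough UMIs in macrophages, of which none was called higher and 2 lower, with a median log2 ratio of -0.30. In tumour cells 15 had enough, none higher and 3 lower, with a median of -0.23. Parp14, an interferon-induced ADP-ribosyltransferase, was 45.0 CPM in UBD and 178 CPM in control macrophages, a ratio of 0.253 (0.229 to 0.280), and 6.59 and 27.3 CPM in tumour cells. Sirt1, an NAD-dependent deacetylase, was lower in both classes too, with ratios of 0.387 (0.309 to 0.483) in macrophages and 0.597 (0.554 to 0.642) in tumour cells. Bst1, the paralogue of Cd38, was 60.1 CPM in UBD and 61.7 CPM in control macrophages, and was called lower in tumour cells, with 0.257 and 1.05 CPM, a ratio of 0.246 (0.167 to 0.355). Parp1, the main DNA-damage ADP-ribosyltransferase, was 90.5 and 60.8 CPM. Sirt2 and Nadk, an NAD kinase, had ratios of 1.22 and 0.702 in tumour cells.

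Of 13 other ectonucleotidases and ATP release genes, 6 had enough UMIs in macrophages, 1 higher and 1 lower (8.93% and 18.4% over all genes), with a median log2 ratio of -0.04. In tumour cells 10 had enough, 2 higher and 1 lower (7.93% and 19.4%), with a median of 0.12. Enpp1, which cuts ATP and NAD outside the cell to AMP, was higher in both classes, 15.0 CPM in UBD and 7.26 CPM in control macrophages, a ratio of 2.06 (1.56 to 2.74), and 13.9 and 8.93 CPM in tumour cells, a ratio of 1.56 (1.45 to 1.68). Enpp1, Cd38 and Nt5e were thus higher together in both classes. Acpp, a phosphatase that can also release adenosine from AMP, was 5.31 CPM in UBD and 2.96 CPM in control tumour cells, a ratio of 1.79 (1.58 to 2.03). Entpd7, an intracellular relative of Entpd1, was 30.1 CPM in UBD and 60.7 CPM in control macrophages, a ratio of 0.496 (0.433 to 0.568), and 16.8 and 14.9 CPM in tumour cells. Enpp2, the lysophospholipase autotaxin, was 14.9 CPM in UBD and 22.3 CPM in control tumour cells, and Entpd6 was 7.89 and 10.5 CPM in macrophages. Neither was called.

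Of 18 genes of adenosine uptake and turnover, all had enough UMIs in both classes, 2 higher and 5 lower in macrophages (median log2 ratio -0.17) and 0 higher and 6 lower in tumour cells (median -0.15). Over all genes 18.4% were lower in macrophages and 19.4% in tumour cells. The 2 called higher in macrophages were Adk, the gene of adenosine kinase, and Nt5c3b. Pnp, the phosphorylase that takes inosine on to hypoxanthine after Ada, was 224 CPM in UBD and 503 CPM in control macrophages, a ratio of 0.445 (0.424 to 0.467), and 63.4 and 120.5 CPM in tumour cells, a ratio of 0.526 (0.513 to 0.540). Its near-identical copy Pnp2 was also called lower in both, and how reads were split between the copies is uncertain. The salvage enzymes Aprt and Hprt were not called in either class. Aprt was 600.4 CPM in UBD and 475.7 CPM in control macrophages, and Hprt 146 and 109 CPM. Xdh, which ends the path at urate, was 2.54 CPM in UBD and 6.76 CPM in control tumour cells, a ratio of 0.375 (0.332 to 0.424).

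Of 12 other adenosine and nucleotide receptors, 9 had enough UMIs in macrophages, none higher and 4 lower (8.93% and 18.4% over all genes), with a median log2 ratio of -0.39. In tumour cells 8 had enough, 1 higher and 4 lower (7.93% and 19.4%), with a median of -0.59. P2rx4, an ATP-gated channel, was 81.7 CPM in UBD and 132.8 CPM in control macrophages, a ratio of 0.616 (0.565 to 0.670), and P2rx7, the ATP-gated channel that triggers the inflammasome, 17.8 and 29.2 CPM, a ratio of 0.609 (0.506 to 0.731). P2ry6, a UDP receptor, was 81.7 and 99.4 CPM in macrophages and was not called there. In tumour cells P2rx4 was 23.6 CPM in the UBD library and 21.6 CPM in the control, P2rx7 4.09 and 2.87 CPM and P2ry2 0.659 and 0.866 CPM, and these 3 were not called. The 4 called lower there, P2ry6, P2ry10, P2ry12 and P2ry14, were all under 1 CPM in both libraries, P2ry6 at 0.270 CPM in the UBD library and 0.694 CPM in the control. P2ry1 gave 79 UMIs in UBD and 3 UMIs in control tumour cells.

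The 3 genes whose levels most resembled each gene were taken from 5242 genes over 16 points, each a class of at least 50 cells in 1 library, by Pearson's r of log2(CPM + 10). Points of a library share its depth, and points of a class its cells, so r is a description. Cd38 was most like Mgl2 (r = 0.77), Cx3cr1 (0.76) and Rps6ka1 (0.74), the first 2 of them highest in macrophages. Adora2b was most like Ms4a8a (0.93), BC028528 (0.91) and Tifa (0.91), all highest in monocytes. Adora2a was most like Stk4, Rcsd1 and Supt4a (0.95, 0.95 and 0.94), all highest in mature dendritic cells, and Nampt like Plin2, Vps18 and Stom (each 0.90). Entpd1 was most like Ccl3 (0.96), Itsn2 (0.94) and Glrx (0.93), and Nt5e like Ripor2 (0.83), H2afj (0.80) and Msra (0.77), both sets led by control neutrophils, where Nt5e rests on 4 UMIs. Ada had the weakest matches, with Ahctf1, Ctnnb1 and Cd9 at 0.70, 0.70 and 0.69. Among the 16 points Ada was highest in control neutrophils, where it rests on 2 UMIs.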

How the data were processed

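Droplet 3' v3 libraries were made from 1 UBD overexpression and 1 control tumour suspension, per the labels' protocols. The authors deposited raw UMI counts per gene and barcode as 1 matrix per library. Cell Ranger, STAR and mm10 are named in the submitters' processing notes, and software version 3.1.0 in the matrix, per the file headers. How cells were called, and whether counting used strand, is not given in the sources used here. The UBD library held 14158 barcodes and 204267192 UMIs, and the control 14890 barcodes and 173973178 UMIs.

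Barcodes were kept from 200 genes and 500 UMIs upward where mitochondrial UMIs made up 20% or less, 13619 in the UBD library and 14353 in the control. Scrublet (scanpy 1.11.5, expected rate 0.1) marked 598 (4.39%) of the UBD and 766 (5.34%) of the control cells as doublets, and these were removed, leaving 13021 and 13587 cells. No deposited annotation of cells was used. Classes were set by UMIs, which replaces clustering: CD8 T by Cd3e with Cd8a and no Foxp3, regulatory T by Cd3e with Foxp3 and no Cd8a, and NK by Ncr1 without Cd3e, at 1 UMI each. Macrophages needed C1qa and tumour cells Cdkn2a at 2 UMIs and 500 CPM, and endothelial cells 2 UMIs of Cdh5. The 128 UBD and 336 control cells meeting more than 1 of these rules were left out. Monocytes (Ly6c2, Lyz2), neutrophils (Csf3r, S100a8), mature dendritic (Ccr7, Fscn1), dendritic (Flt3, H2-Ab1), osteoclast-like (Acp5, Ctsk) and fibroblast (Pdgfra, Dcn) cells came from those meeting none.

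UMIs were summed per class and library and scaled to CPM, with exact Poisson intervals. Ratios, UBD over control, have exact conditional binomial intervals and were given where both libraries had more than 3 UMIs. Shares have Clopper-Pearson and their differences Newcombe intervals, all at 95%. PCR duplicates are collapsed by UMIs, and intervals and floors (3 counts) cover counting error only. No test between groups was run with 1 library each. The size rule was run on simulated Poisson counts, the model its intervals assume, so that run cannot show error from variation between cells or libraries. The genes and lists were chosen with earlier results of these data known. Named genes are the 7 members, the 3 most alike by correlation, and from each pathway list the 3 with the most UMIs in macrophages and in tumour cells. Sirt1, Acpp, Adk, Nt5c3b, Pnp2, Xdh, P2ry1 and, in tumour cells, the state markers were named after their values were seen. GENCODE vM21 and RefSeq windows (GRCm38) gave positions and sequences. Software was Python 3.11.15, numpy 2.4.6, scipy 1.17.1, pandas 2.3.3, statsmodels 0.14.6 and matplotlib 3.10.9.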

Additional observations from a re-analysis of the deposited data

Results flagged for a closer look

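In tumour cells Nt5e, the gene of CD73, differed in opposite directions between cell states, and the difference between states was not tested. In cells with at least 2 Krt18 UMIs its ratio, UBD over control, was 0.442, on 258 UMIs in 991 UBD cells and 144 UMIs in 170 control cells. In cells with at least 2 H19 UMIs the ratio was 2.13, in cells with neither gene 1.99, in Cxcl10-high cells 3.1, in Car9 cells 1.77 and in cycling cells 1.90. Control Krt18 cells had a median of 31644 UMIs and UBD ones 21256, and the part of depth was not tested. Krt18 itself was 79.1 CPM in UBD and 12.3 CPM in control tumour cells, and a cell could meet both the Krt18 and the H19 cut. The part of either in these ratios was not tested.

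Adora2a, an adenosine receptor gene, was past 1.5-fold higher in one split of the UBD macrophages and lower in others, which was likewise not tested. In Ly6c2-high macrophages the ratio was 3.99 (1.03 to 11.3), but on 4 UMIs in 24 UBD cells against 32 UMIs in 739 control cells. In macrophages below 2000 CPM of H2-Ab1 it was 0.330 (0.158 to 0.635), and in those with under 2 Lyve1 UMIs 0.574 (0.368 to 0.884). With Ly6c2 taken at 1 UMI, the ratio in Ly6c2 macrophages was 1.63 (0.563 to 3.90).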

How the results depend on the processing

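Each of 25 ratios was recomputed under 9 alternatives (cell filter, doublets, class thresholds, cells of more than 1 class, weighting, depth and scaling). Of these 225 values 207 stayed within the main counting interval, 17 moved, and 1 whose interval excluded 1 changed sign: Ada in tumour cells, with a log2 ratio of 0.024 when cells were thinned to 1000 UMIs. Entpd1 in CD8 T cells, macrophages and monocytes and Adora2a in monocytes, whose intervals include 1, also crossed it under at least 1 alternative. Thinning also moved the log2 ratio of Cd38 to 2.34 in CD8 T cells, 1.79 in macrophages and 1.72 in tumour cells. Over the 9 alternatives the Cd38 ratio ranged over 2.13 to 5.07 in CD8 T cells, 2.60 to 3.46 in macrophages and 3.30 to 3.89 in tumour cells. Differences in the share of cells with Cd38 scale with depth: in macrophages 2.76 points at 500 UMIs and 20.6 unthinned, in tumour cells 0.579 and 15.9. Setting the H2-Ab1 split at 1 UMI gave log2 ratios of 1.44 with and 1.61 without H2-Ab1. Requiring 100 UMIs left 159 genes higher and 164 lower in CD8 T cells, from fewer genes tested. Scaling by the median gene ratio gave 1380 higher and 1689 lower genes in macrophages, 45.0% of calls higher in place of 32.7%. For splits added after seeing the data, the log2 ratio of Cd38 in macrophages was 2.27 and 1.14 in the shallow and deep band, and in tumour cells 0.31 (Krt18), 2.33 (H19), 2.29 (Cxcl10), 1.00 (Serpinb2 or Il11) and 1.35 (Car9). Where no construction of the alternative shows it, the cause was not tested. No paired analysis was possible because each group has 1 library. Classes under 50 cells (regulatory T, endothelial and dendritic cells in both libraries, NK cells and neutrophils in the UBD library) limit what can be seen there.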
